A study of Mus musculus with 16 samples.

Results

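The macrophage and complement C1q genes described here are Tyrobp, Fcer1g, C1qa, C1qb, C1qc, Csf1r, Cd68, Aif1, Cx3cr1 and Adgre1. They were chosen by name as markers of macrophages, with earlier results of these data known. Each was read from 1 probe set, which is the set of array probes that measures a gene. Of the 10 genes, 9 were named in the platform annotation used here, among 19572 named probe sets (19505 gene symbols), and each of the 9 had a single probe set. Cd68, a lysosomal membrane protein of macrophages, was not among the named probe sets and is not analysed further.

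The samples were cells of the olfactory mucosa of S100a5-tauGFP mice, in which a green fluorescent protein (GFP) reporter is named for the neuronal gene S100a5, and all groups carried it. The 24 mice, of both sexes and 7 to 12 weeks old, stayed singly for 40 h in clean air chambers with a flow of 3.1 L/min. From 26 h on, pulses of 10 s of the ketone odorant 2-octanone or of filtered air (vehicle) were given at intervals of 20 min. Mice were pooled by 3, and each of the 8 pools was sorted into GFP+ and GFP− cells, so that a value stands for 3 animals and the variation between single mice cannot be seen. The 4 groups, each of 4 Clariom S arrays, were GFP+ cells after 2-octanone, GFP− cells after 2-octanone, GFP+ cells after vehicle and GFP− cells after vehicle.

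All levels are log2 signals as deposited, so that a difference of 1 is a doubling. Array medians over the named probe sets lay between 7.64 and 7.73 in GFP+ cells and between 7.92 and 8.01 in GFP− cells. The 23 background probe sets averaged 5.40 to 5.61 per array, and the brightest of them read 7.82 to 9.10. Omp, the marker of mature olfactory sensory neurons (OSNs), read 18.35 to 18.45 in GFP+ cells, against 17.76 to 18.36 in GFP− cells and was bright in both fractions. S100a5 was higher in GFP+ cells in 8 of 8 pools, by 0.11 to 1.22. It was not called without the pool as a block (0.83, adjusted p = 0.304; 0.000487 with it), and its lowest arrays were those of replicate 4, at 13.92 in GFP+ and 13.55 in GFP− cells after 2-octanone and 13.22 in GFP+ and 13.11 in GFP− cells after vehicle. The median difference between GFP+ and GFP− cells over all named probe sets was 0.13, and centring each array on its median raised the differences in the sort by 0.28 over both exposures, 0.26 within 2-octanone and 0.30 within vehicle. Arrays were compared with limma, and "called" means a Benjamini-Hochberg adjusted p below 0.05 across the 19572 probe sets.

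Macrophages clear dying neurons in the olfactory epithelium, where OSNs are replaced throughout life, and they patrol the lamina propria below it. Tyrobp (DAP12) and Fcer1g (the Fc receptor gamma chain) are short adaptor proteins that carry signals from activating surface receptors of myeloid and natural killer cells to the kinase Syk, so they are shared by macrophages, neutrophils, mast cells and other leukocytes. Csf1r is the receptor for the growth factors Csf1 and Il34 on which most tissue macrophages depend, and Cx3cr1 is the receptor for fractalkine (Cx3cl1), which neurons make. Aif1 (Iba1) is a calcium-binding protein that bundles actin, and Adgre1 (F4/80) is an adhesion receptor of mouse macrophages. C1qa, C1qb and C1qc encode the chains of C1q, the molecule that starts the classical complement pathway and tags debris for uptake, and in most tissues macrophages are its main source.

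The C1q genes lie next to each other on mouse chromosome 4, in the order C1qb, C1qc, C1qa. The 250 bases before the transcription starts of C1qb and C1qc are printed because these neighbours had like levels in GFP+ and GFP− cells, and those of Fcer1g because it had the largest difference of the 9 genes. The sequences are those of RefSeq (GRCm38.p6), read 5′ to 3′ towards the gene. The spans, all on the minus strand, are chr4:136886201-136886450 for C1qb, chr4:136892915-136893164 for C1qc and chr1:171234350-171234599 for Fcer1g. Capitals mark GAGGAA or its reverse complement TTCCTC, a core bound by the myeloid transcription factor PU.1, which Spi1 encodes.
C1qb: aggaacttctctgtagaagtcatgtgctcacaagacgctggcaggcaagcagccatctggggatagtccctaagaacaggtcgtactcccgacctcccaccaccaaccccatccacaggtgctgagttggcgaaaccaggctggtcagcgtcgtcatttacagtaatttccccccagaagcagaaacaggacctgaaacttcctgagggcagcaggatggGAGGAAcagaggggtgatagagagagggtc
C1qc: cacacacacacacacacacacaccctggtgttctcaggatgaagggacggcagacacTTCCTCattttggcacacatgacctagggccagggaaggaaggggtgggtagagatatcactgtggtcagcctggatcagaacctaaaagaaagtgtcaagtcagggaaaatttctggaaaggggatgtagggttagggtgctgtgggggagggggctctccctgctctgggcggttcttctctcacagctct
Fcer1g: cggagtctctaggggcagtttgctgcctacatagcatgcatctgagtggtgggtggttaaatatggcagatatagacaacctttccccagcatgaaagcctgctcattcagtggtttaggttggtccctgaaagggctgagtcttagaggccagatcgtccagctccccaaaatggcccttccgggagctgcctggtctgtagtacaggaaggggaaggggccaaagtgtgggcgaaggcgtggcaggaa
A match began 30 bases before the start of C1qb on the strand shown and 193 bases before that of C1qc on the opposite strand, and the Fcer1g window held none. Promoters were found for 6 of the 10 genes, of which 4 (Aif1, C1qb, C1qc and Cd68) had a match. Of all 32851 RefSeq promoter windows of this length, 23.3% did.

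The first question was whether these genes part reporter-positive from reporter-negative cells. GFP+ cells held far less RNA of the adaptors Tyrobp and Fcer1g, less of Csf1r, Cx3cr1 and Aif1, and slightly less of Adgre1, while the C1q chains did not differ detectably between the fractions. Over both exposures 6 of the 9 genes were called lower and none higher, where 14.0% of all named probe sets were called lower, 16.7% higher and 30.7% in either direction. The median difference of the 9 genes was −1.17, against 0.13 for all probe sets. On arrays of sorted cells, fewer cells of a type and less RNA per cell cannot be told apart.

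Fcer1g read 7.91, 8.56, 7.98 and 10.23 in GFP+ cells, against 12.84, 13.39, 12.91 and 13.63 in GFP− cells of the 4 pools given 2-octanone. After vehicle it read 8.67, 8.51, 7.34 and 8.62 in GFP+ cells, against 13.33, 13.23, 12.66 and 14.03 in GFP− cells. The fractions did not overlap in either exposure, and the array that came closest was GFP+ cells of octanone replicate 4. Fcer1g was 27.4-fold lower in GFP+ cells (log2 difference −4.77, SE 0.31, n = 4 pools per exposure, limma adjusted p = 6.22e-09).

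Tyrobp read 6.48, 6.86, 6.74 and 7.86 in GFP+ cells, against 10.17, 11.35, 10.30 and 12.06 in GFP− cells after 2-octanone. Under vehicle the signals were 7.15, 6.75, 6.13 and 6.96 in GFP+ cells, against 10.97, 10.74, 9.98 and 12.07 in GFP− cells. The fractions again lay apart on all arrays, and in both exposures the GFP− cells of replicate 4 were highest. Tyrobp was 17.0-fold lower in GFP+ cells (−4.09, SE 0.32, adjusted p = 4.05e-08). Its mean in GFP+ cells exceeded only 12 of the 23 background probe sets in each exposure, whereas in GFP− cells it exceeded all 23. Whether background limits the size of this difference was not tested.

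Genes of neutrophils, which also use both adaptors, moved in the same direction. All 13 measured neutrophil genes were lower in GFP+ cells, with a median of −6.92. Their mean log2 signal was 7.04 to 11.66 in GFP+ cells, against 13.76 to 15.44 in GFP− cells after 2-octanone, and 6.70 to 7.82 in GFP+ cells, against 13.79 to 15.14 in GFP− cells after vehicle. The highest GFP+ value, 11.66, belonged to octanone replicate 4, which also had the highest Tyrobp and Fcer1g of the GFP+ arrays. Without that pool Fcer1g differed by −4.96 and Tyrobp by −4.05. The part of neutrophil RNA in the adaptor values was not tested.

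**Figure D1:**
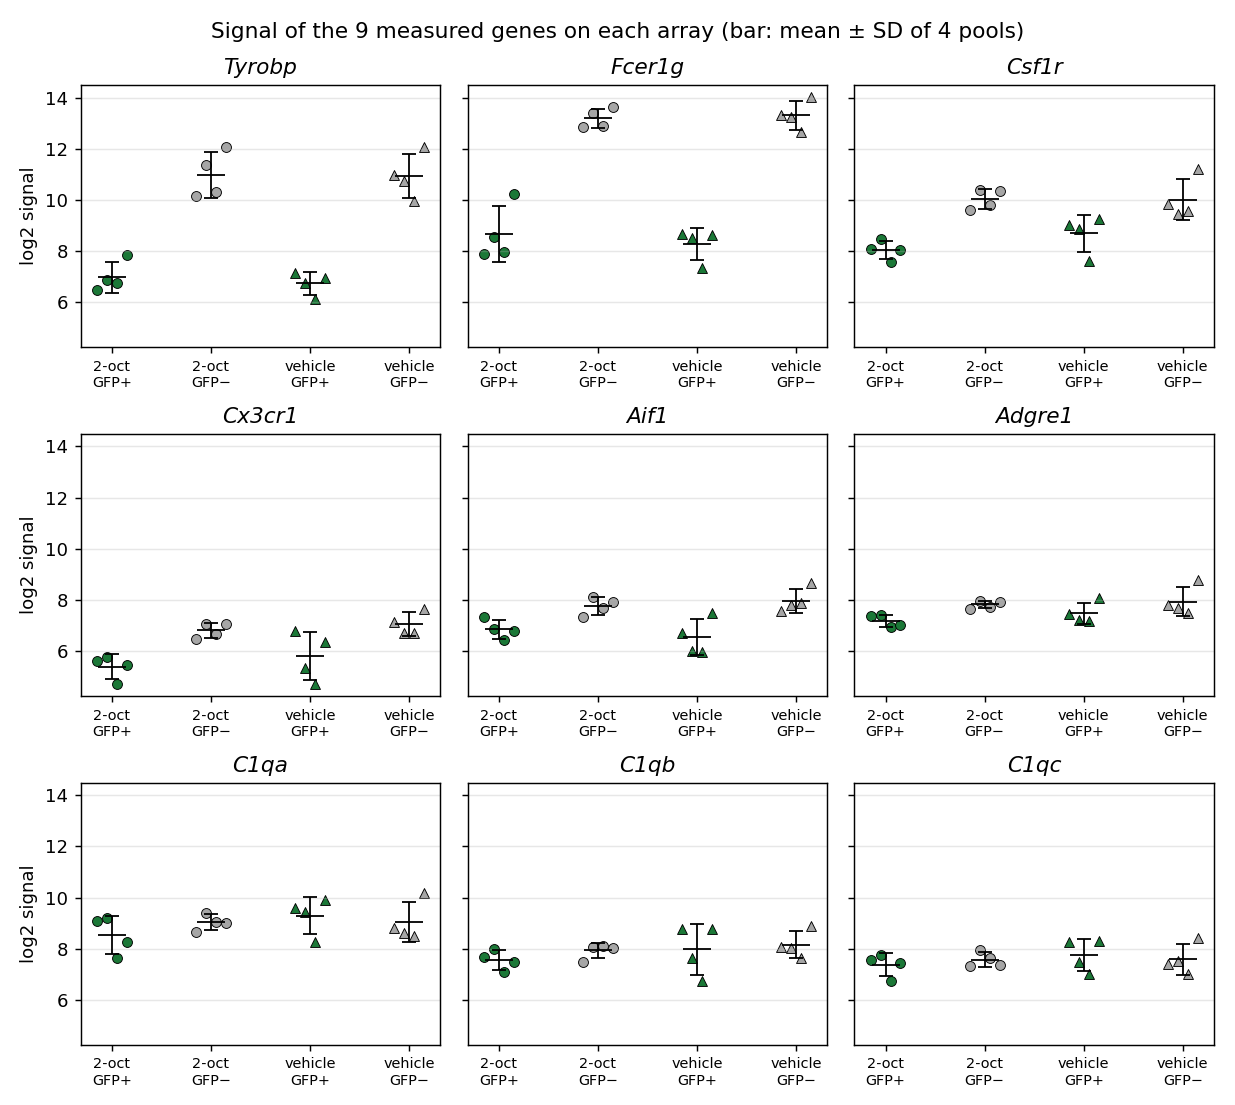
Log2 signal (vertical axis, the same scale in all panels) of the 9 measured genes in GFP+ (green) and GFP− cells (grey) after 2-octanone (circles) and vehicle (triangles). Each point is 1 array, in order of replicate number, and bars show the mean ± SD of 4 pools. Tyrobp, Fcer1g and Csf1r have no overlap between fractions, and the C1q chains lie at like levels in all 4 groups.

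The growth factor receptor gene Csf1r read 8.07, 8.48, 7.58 and 8.06 in GFP+ cells, against 9.61, 10.39, 9.81 and 10.36 in GFP− cells after 2-octanone. After vehicle it read 9.03, 8.87, 7.63 and 9.26 in GFP+ cells, against 9.83, 9.45, 9.58 and 11.20 in GFP− cells. The fractions did not overlap, but after vehicle the highest GFP+ array (9.26) lay just below the lowest GFP− array (9.45). Csf1r was 3.15-fold lower in GFP+ cells over both exposures (−1.66, SE 0.27, adjusted p = 0.000147), by −1.99 after 2-octanone (adjusted p = 0.00127) and by −1.32 after vehicle (adjusted p = 0.0218). The call after vehicle was lost without vehicle replicate 3 (−1.11, adjusted p = 0.0583). It was also lost when only the arrays compared were fitted (−1.32, adjusted p = 0.0693).

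The fractalkine receptor gene Cx3cr1 was the dimmest of the 9. It read 5.63, 5.79, 4.72 and 5.46 in GFP+ cells, against 6.47, 7.07, 6.66 and 7.05 in GFP− cells after 2-octanone. Under vehicle the signals were 6.78, 5.34, 4.73 and 6.37 in GFP+ cells, against 7.15, 6.70, 6.72 and 7.67 in GFP− cells. The fractions lay apart after 2-octanone and touched after vehicle, where GFP+ cells of replicate 1 (6.78) stood above GFP− cells of replicates 2 and 3. It was lower in GFP+ cells in 8 of 8 pools (−1.34, SE 0.26, adjusted p = 0.000911). In GFP+ cells its mean exceeded 11 of the 23 background probe sets, and in GFP− cells 12 after 2-octanone and 13 after vehicle. It was called within 2-octanone (−1.41, adjusted p = 0.0145) and within vehicle (−1.26, adjusted p = 0.0250), and leaving out octanone replicate 2, 3 or 4 ended the first call (adjusted p = 0.0540, 0.0794 and 0.0705) and vehicle replicate 2, 3 or 4 the second (0.0794, 0.0770 and 0.0572). The call within vehicle was also lost after quantile normalisation (−1.09, 0.0511), without both replicate 4 pools (0.0722) and when only the arrays compared were fitted (0.071).

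Aif1, the actin-bundling marker, read 7.33, 6.87, 6.43 and 6.79 in GFP+ cells, against 7.34, 8.13, 7.68 and 7.93 in GFP− cells after 2-octanone. After vehicle it read 6.71, 6.02, 5.99 and 7.49 in GFP+ cells, against 7.57, 7.82, 7.87 and 8.65 in GFP− cells. In octanone replicate 1 the fractions were level, with a difference of −0.01, and in the other 7 pools the difference ran from −0.86 to −1.88. Aif1 was 2.25-fold lower in GFP+ cells over both exposures (−1.17, SE 0.22, adjusted p = 0.000657). Its means exceeded 12 of the 23 background probe sets in GFP+ cells of each exposure, and in GFP− cells 20 after 2-octanone and 22 after vehicle, and whether background limits this fold was not tested. Within vehicle it was called (−1.42, adjusted p = 0.00359). Within 2-octanone it was not (−0.92, adjusted p = 0.0609), but it passed when blocked on the pool (0.0161), without octanone replicate 1 (−1.22, 0.0344) and without vehicle replicate 4 (0.00806), which enters through the shared spread.

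Adgre1, the F4/80 receptor, read 7.38, 7.42, 6.96 and 7.03 in GFP+ cells, against 7.67, 7.96, 7.74 and 7.94 in GFP− cells after 2-octanone. Under vehicle the signals were 7.45, 7.23, 7.19 and 8.07 in GFP+ cells, against 7.79, 7.68, 7.51 and 8.79 in GFP− cells. The shift was small and was seen in every pool, from −0.29 to −0.90, and within vehicle the arrays of the fractions overlapped. Adgre1 was 1.46-fold lower in GFP+ cells (−0.54, SE 0.17, adjusted p = 0.0266). Its means in GFP+ cells exceeded 14 of the 23 background probe sets after 2-octanone and 17 after vehicle. This call was lost without octanone replicate 2 (adjusted p = 0.0538), 3 (0.0671) or 4 (0.0751), without vehicle replicate 1 (0.0515) or 2 (0.0502), after quantile normalisation (−0.27, 0.278) and after median centring (−0.27, 0.185). Within the exposures it was not called (−0.63, adjusted p = 0.104 after 2-octanone and −0.46, 0.221 after vehicle), but blocked on the pool it passed in both (0.00695 and 0.0325), and after 2-octanone also without vehicle replicate 4 (0.00436).

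In all, 4 of the 9 genes were called lower within 2-octanone, where 9.80% of all probe sets were called lower, 5.29% higher and 15.1% in either direction. Within vehicle 5 were called lower, where 11.0% of all probe sets were called lower, 7.54% higher and 18.6% in either direction. Blocking on the pool, from whose mice GFP+ and GFP− cells were both taken, gave 6 calls in each exposure, where 10.9% of all probe sets were called lower after 2-octanone and 12.0% after vehicle. Both single-exposure comparisons reuse arrays of the comparison over both exposures.

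The C1q chains were not called in any comparison of GFP+ with GFP− cells. C1qa, the brightest of them, read 9.09, 9.21, 7.63 and 8.25 in GFP+ cells, against 8.67, 9.42, 9.05 and 9.02 in GFP− cells after 2-octanone. After vehicle it read 9.59, 9.44, 8.25 and 9.90 in GFP+ cells, against 8.81, 8.62, 8.52 and 10.19 in GFP− cells. The fractions overlapped in both exposures, and GFP+ cells were higher in 3 of the 8 pools (octanone replicate 1 and vehicle replicates 1 and 2) and lower in 5. The difference was −0.12 (SE 0.29, 95% interval −0.74 to 0.50, adjusted p = 0.784).

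C1qb read 7.67, 8.0, 7.09 and 7.47 in GFP+ cells, against 7.49, 8.08, 8.13 and 8.05 in GFP− cells after 2-octanone. Under vehicle the signals were 8.77, 7.63, 6.73 and 8.78 in GFP+ cells, against 8.07, 8.04, 7.64 and 8.90 in GFP− cells. GFP+ cells were lower in 6 of 8 pools and higher in the replicate 1 pool of each exposure. The difference was −0.28 (SE 0.27, 95% interval −0.86 to 0.29, adjusted p = 0.440).

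C1qc read 7.57, 7.77, 6.75 and 7.44 in GFP+ cells, against 7.35, 7.97, 7.64 and 7.36 in GFP− cells after 2-octanone. After vehicle it read 8.27, 7.48, 7.00 and 8.32 in GFP+ cells, against 7.41, 7.54, 7.01 and 8.42 in GFP− cells. The levels were nearly the same in both fractions (−0.01, SE 0.23, 95% interval −0.50 to 0.47, adjusted p = 0.968), with within-pool differences from −0.89 to 0.86. The intervals of all 3 chains exclude a difference of the size seen for Csf1r, and they do not show that the chains are equal in both fractions. The sign was unsettled: after median centring C1qa and C1qc read 0.16 and 0.26 higher in GFP+ cells and C1qb −0.01, and none was called.

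All 3 chains read near the middle of the array. Their group means lay between the 46.8th and the 61.6th percentile of the named probe sets, and C1qc exceeded 16 to 21 of the 23 background probe sets, C1qb 17 to 23 and C1qa 22 or 23. No detection call came with the values, so how far low signal compresses the C1q differences is unknown.

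**Figure D2:**
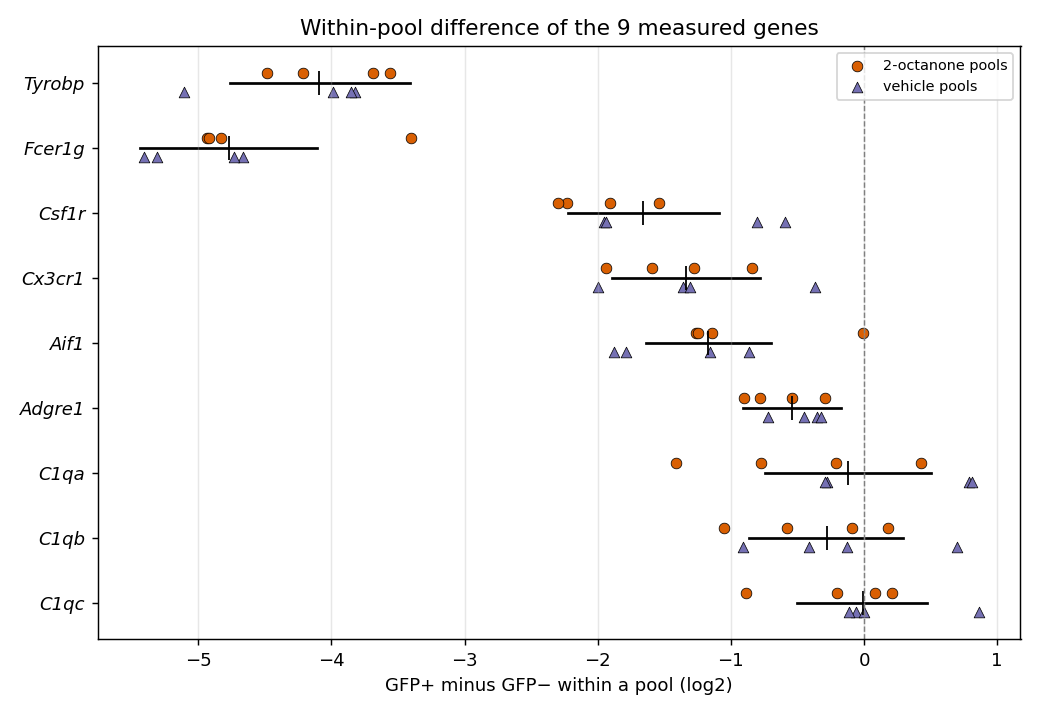
GFP+ minus GFP− difference (log2, horizontal axis) within each of the 8 pools for the 9 measured genes, with 2-octanone pools as circles and vehicle pools as triangles. Black lines give the mean and its 95% interval from the limma fit over both exposures, and the dashed line marks no difference. Tyrobp and Fcer1g lie between −3.40 and −5.41 in every pool, and the C1q chains lie on both sides of 0.

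Since GFP+ and GFP− cells of a pool shared their mice, the difference of one gene could be set against that of another in the same pools. Over the 36 pairs of genes an exact sign-flip permutation test over the 8 pools (two-sided, smallest possible p = 0.00781) passed a Benjamini-Hochberg adjusted p of 0.05 in 27. Tyrobp and Fcer1g differed from each of the other 7 genes in 8 of 8 pools (adjusted p = 0.0117 for each pair). The fall of Tyrobp was larger than that of Csf1r by −2.43 and than that of C1qa by −3.97. Csf1r fell by more than each C1q chain in 8 of 8 pools, by 1.54 against C1qa, 1.37 against C1qb and 1.64 against C1qc (adjusted p = 0.0117 each). The same held for Cx3cr1, with 1.22, 1.05 and 1.32 (adjusted p = 0.0117 each). The chains did not pass the test against each other (adjusted p = 0.474, 0.578 and 0.0502), and Adgre1 passed it against C1qc (0.53, adjusted p = 0.0216) and not against C1qa (0.43, 0.122) or C1qb (0.26, 0.213). These are ratios within arrays and show unequal change only, and they do not depend on how the arrays are scaled to each other by a constant.

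The receptors and kinases that work with the adaptors mostly fell with them. Of 12 measured, 9 were called lower and none higher in GFP+ cells, where 14.0% of all probe sets were lower (median −2.92, against 0.13 for all probe sets). They included the phospholipase gene Plcg2 (−2.92, SE 0.19), the phosphatase gene Inpp5d (−2.92), the kinase gene Fgr (−3.21) and the immunoglobulin receptor gene Fcgr3 (−3.80, SE 0.37). Trem2, the lipid-sensing receptor of tissue macrophages that signals through Tyrobp and was chosen after its values were seen, read 6.95, 7.33, 6.61 and 6.94 in GFP+ cells, against 6.64, 7.48, 7.38 and 7.17 in GFP− cells after 2-octanone. Under vehicle the signals were 7.72, 7.66, 6.52 and 8.03 in GFP+ cells, against 7.37, 6.68, 6.51 and 7.88 in GFP− cells. The fractions overlapped, and its difference over both exposures was 0.08 (SE 0.23, adjusted p = 0.813).

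Of 15 measured complement genes, 6 were called lower and 1 higher (median −0.02), where 14.0% of all probe sets were lower and 16.7% higher. After median centring 5 were lower and 7 higher (median 0.26), where 10.5% and 66.9% of all probe sets were. The integrin chains of the complement receptors stood at −6.17 (SE 0.39) for Itgam, −5.64 for Itgb2 and −1.51 for Itgax, and the C5a receptor gene C5ar1 at −1.26. Also called lower, and named after their values were seen, were Cfp, the properdin gene (−2.21, adjusted p = 1.03e-05), and Serping1, the C1 inhibitor gene (−0.38, 0.00368), whose call was lost after quantile normalisation (0.220) and median centring (0.281). The C3a receptor gene C3ar1 stood at −0.05 and was not called (0.910). These integrins and C5ar1 are also made by neutrophils. The C1s protease gene C1s1, whose product acts downstream of C1q, was the gene called higher (0.30, adjusted p = 0.0434). After quantile normalisation C1s1 was not called (0.24, 0.0605). It was chosen after its values were seen, and its array signals, from 4.58 to 5.5, lay among those of the background probe sets.

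Of 11 ligands and regulators 6 were called lower and 2 higher (median −0.62), against 14.0% and 16.7% of all probe sets. Spi1, the PU.1 transcription factor gene of myeloid cells, differed by −5.34 (SE 0.38), the receptor chain gene Csf2ra by −3.89, Runx1 by −2.58 and Cebpa by −0.62. The genes called higher in GFP+ cells were both ligands of receptors described above: Il34, a ligand of Csf1r (0.41, SE 0.10, adjusted p = 0.00588), and Cx3cl1, the ligand of Cx3cr1 (0.77, SE 0.25, adjusted p = 0.0256). Both kept their call and direction after quantile normalisation and median centring. Csf1, the other ligand of Csf1r, stood at −0.40 and was not called (adjusted p = 0.0508). These 3 genes were chosen after their values were seen. Il34 and Cx3cl1 were dim, with group means above 11 or 12 of the 23 background probe sets.

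Of 17 measured markers of resident macrophages, 3 were called lower, 2 higher and 12 not (median 0.06), shares near the 14.0% lower and 16.7% higher of all probe sets. After median centring 3 were lower and 9 higher (median 0.34), where 66.9% of all probe sets were higher. The genes called lower were the transglutaminase gene F13a1 (−3.52), the lysosomal protease gene Ctss (−2.12) and the lipopolysaccharide co-receptor gene Cd14 (−1.62), and the folate receptor gene Folr2 (0.40, adjusted p = 0.0142; 0.0641 after quantile normalisation) and the protease gene Lgmn (0.27, 0.0486) were called higher. Folr2 was among the dimmest, at 3.70 to 4.89, and Lgmn, chosen after its values were seen, among the brightest, at 15.47 to 15.74 in GFP+ cells. The mean signal of the 17 genes, Lgmn included, was 6.79 to 7.78 per array, where the brightest background probe set read 7.82 to 9.10. Whether low signal holds their differences near 0 was not tested, and a median near 0 does not show equal levels. All 12 measured monocyte genes were lower (median −3.75), among them Fn1 at −6.57, Ly6c2 at −7.57, Ms4a4c at −4.05 and Ms4a6c at −3.40. So were all 6 genes of leukocytes at large (median −4.74; Ptprc, the CD45 gene, at −4.75). The 13 neutrophil genes included Ltf at −6.61 and Mpo at −5.74.

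Other cells that use the adaptors or macrophage genes were measured in the same way, and their counts stand against 14.0% lower and 16.7% higher of all probe sets (10.5% and 66.9% after median centring). All 11 lymphocyte and natural killer cell genes were lower (median −1.96; the killer cell receptor gene Klrb1c at −2.67). Of 11 mast cell, basophil and eosinophil genes 8 were lower and 1 higher (median −1.31; the carboxypeptidase gene Cpa3 at −2.37). Of 10 dendritic cell genes 4 were lower and 2 higher (median −0.09; Flt3 at −1.85), and after median centring 3 and 3. Of 10 mature OSN genes 5 were higher and none lower (median 0.26; the chloride channel gene Ano2 at 0.53), and after median centring all 10 were higher. Median centring moved the higher share of all calls from 54.4% to 86.4%. Mean signals of these lists moved with the sort beside those of the 9 genes, and their part in the differences was not tested.

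**Figure D3:**
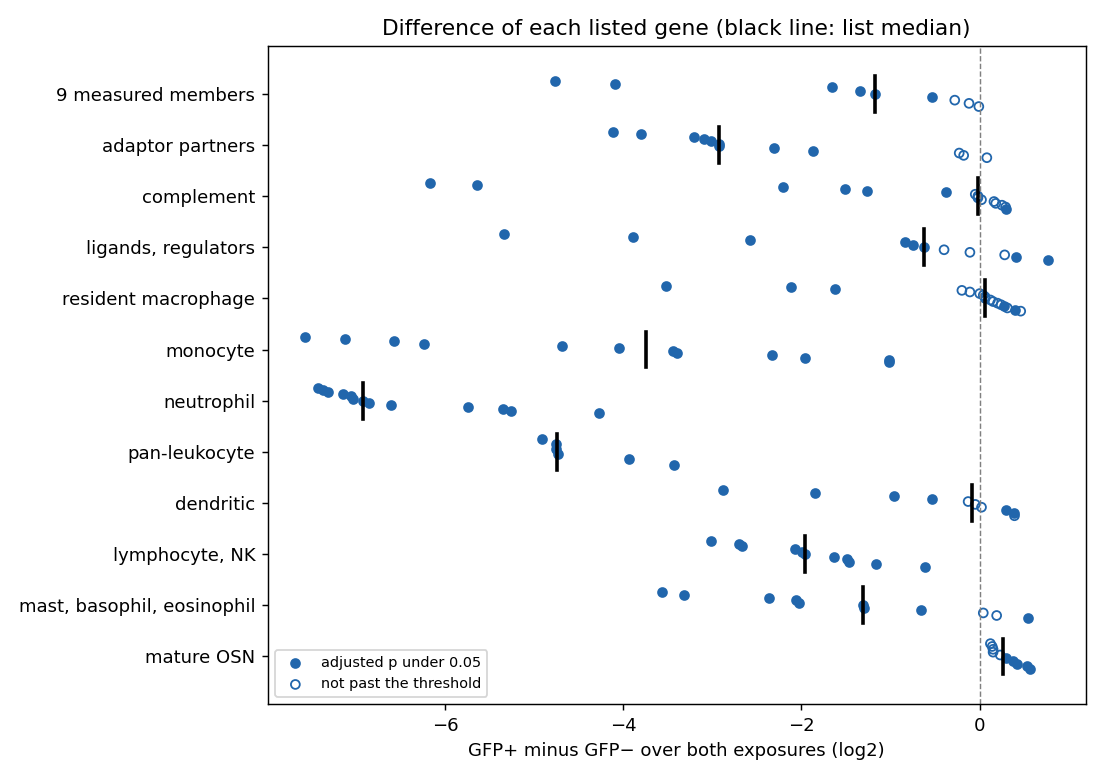
GFP+ minus GFP− difference over both exposures (log2, horizontal axis) of each measured gene of the 12 lists, with filled points for genes past an adjusted p of 0.05 and a black line at the list median. The neutrophil, leukocyte and monocyte lists lie wholly below 0, and so does the list of lymphocyte and natural killer cell genes. Most genes of the resident macrophage list lie near 0, as the C1q chains do.

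The 9 genes also varied between pools within a fraction. Over the 8 pools, pairs of genes were correlated within GFP+ and within GFP− cells, and each gene between the fractions, which made 81 relations with exact permutation p-values adjusted over all 81. In GFP+ cells C1qa and Csf1r had r = 0.93 (adjusted p = 0.00767; rho = 0.98, adjusted p = 0.00643), and r = 0.96 without the 2 pools farthest from the median of C1qa. C1qb and C1qc had r = 0.96 (adjusted p = 0.00663; rho = 0.98, adjusted p = 0.00643; 0.89 without the 2 pools farthest from the median of C1qb), and C1qc and Cx3cr1 r = 0.97 (adjusted p = 0.00663; rho = 0.95, adjusted p = 0.0116; 0.99 without the farthest 2). Tyrobp and Fcer1g had r = 0.98 with each other (adjusted p = 0.00100; rho = 1.0, adjusted p = 0.00201; 0.83 without the farthest 2). Against the C1q chains Tyrobp had r = 0.05 to 0.38 in GFP+ cells, and none of these passed (adjusted p = 0.919, 0.434 and 0.477; rho = 0.33, 0.52 and 0.48, adjusted p = 0.450, 0.257 and 0.285). Without the 2 pools farthest from the median of Tyrobp these r were 0.42, 0.75 and 0.63. Whether these r values differ from those among the C1q genes was not tested.

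By r, 29 of the 36 pairs passed in GFP− cells, against 15 of 36 in GFP+ cells. The r ran from 0.63 to 0.96 in GFP− cells and from −0.04 to 0.98 in GFP+ cells. By rho most of these 29 pairs did not pass, such as C1qb and Cx3cr1 (r = 0.87, adjusted p = 0.0273; rho = 0.60, adjusted p = 0.191). The counts by r therefore do not show that the genes vary together more widely in GFP− cells. Vehicle replicate 4 read highest for C1qa (10.19), Csf1r (11.20) and Adgre1 (8.79) in GFP− cells. C1qa and Csf1r had r = 0.96 there (adjusted p = 0.00663; rho = 0.90, adjusted p = 0.0195) and 0.78 without the 2 pools farthest from the median of C1qa. Several other pairs rested on such pools, such as C1qc and Csf1r (r = 0.81, adjusted p = 0.0340; rho = 0.62, adjusted p = 0.179), with r = 0.07 without them. Between the fractions of a pool only Tyrobp passed by r (r = 0.81, adjusted p = 0.0243; rho = 0.88, adjusted p = 0.0255; 0.64 without the farthest 2). Fcer1g passed by rho and not by r (r = 0.71, adjusted p = 0.076; rho = 0.88, adjusted p = 0.0255; 0.78 without the farthest 2). C1qa passed by neither (r = 0.38, adjusted p = 0.438; rho = 0.19, adjusted p = 0.665; 0.63 without the farthest 2). With 4 pools per exposure these relations could not be tested within an exposure.

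**Figure D4:**
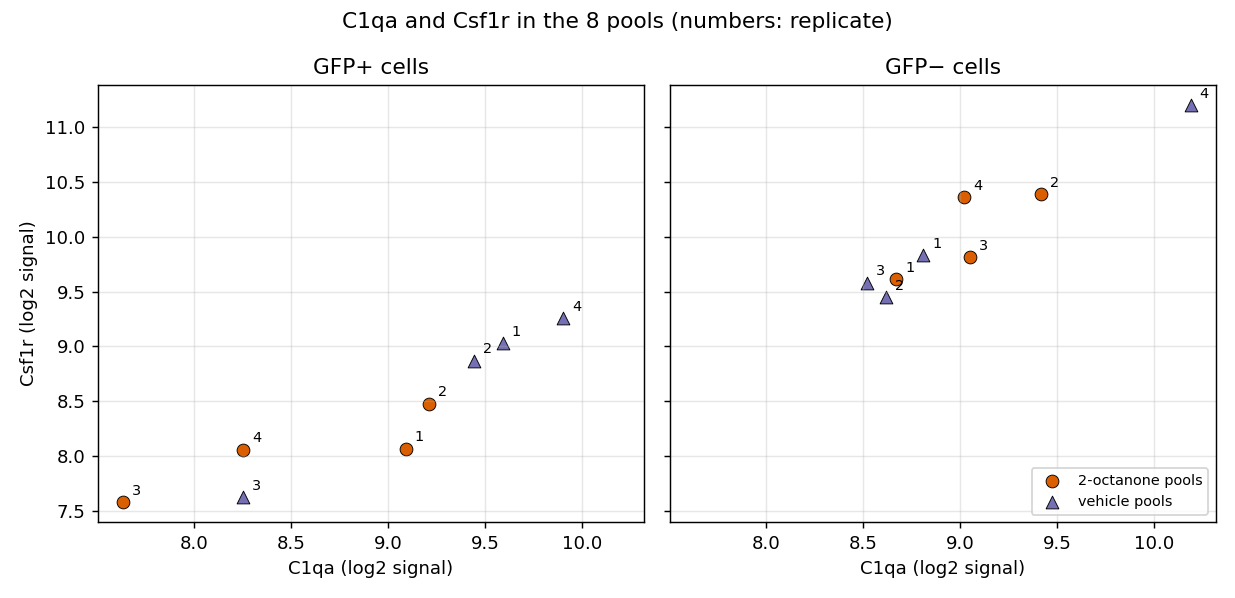
C1qa (horizontal axis) against Csf1r (vertical axis), both as log2 signal, in GFP+ cells (left) and GFP− cells (right) of the 8 pools, numbered by replicate, with 2-octanone pools as circles and vehicle pools as triangles. Both genes vary together in each fraction, and in GFP− cells vehicle replicate 4 stands apart at 10.19 and 11.20.

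The likeness of other genes to these profiles was measured as the root mean square difference of gene-centred log2 signals over the 16 arrays, among 19496 other genes. The 5 genes closest to the mean profile of the C1q chains were Apoe, a lipid carrier protein (0.209), the transporter gene Abcc3 (0.223), Trem2 (0.245), the lysophospholipid receptor gene Gpr34 (0.268) and the C3a receptor gene C3ar1 (0.269). The chains themselves stood at 0.191 for C1qa, 0.178 for C1qb and 0.144 for C1qc from their own mean. The sort differences of these 5 genes ran from −0.17 for Apoe to 0.08 for Trem2 and Gpr34. The 5 closest to the mean of Tyrobp and Fcer1g were the actin-binding gene Cnn2 (0.259), the chemokine receptor gene Cxcr4 (0.265), the immune checkpoint gene Vsir (0.289), the interferon-induced gene Ifitm2 (0.296) and Anxa2 (0.304). Their sort differences were −4.31 for Cnn2, −4.36 for Cxcr4, −4.33 for Vsir, −4.84 for Ifitm2 and −4.72 for Anxa2. Since likeness was taken over GFP+ and GFP− arrays together, it fixed the sort differences of all these genes near those of the profile, and they are given as a description.

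The last question was whether 2-octanone altered these genes. None of the 9 was called in GFP+ cells, in GFP− cells or in how far the fractions lay apart between exposures. Over all probe sets limma called 0%, 0.00511% and 0% in these comparisons, and no member had an unadjusted p under 0.05 in any of them, where 3.16%, 2.44% and 2.38% of all probe sets did. With the replicate number or the pool as a block none was called either.

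In GFP+ cells the differences ran from −0.75 for C1qa to 0.39 for Fcer1g (median −0.39, against 0.01 for all probe sets). C1qa averaged 8.55 ± 0.74 after 2-octanone and 9.30 ± 0.72 after vehicle (SD, n = 4 each), a difference of −0.75 (SE 0.41, 95% interval −1.63 to 0.13, adjusted p = 1.0). Csf1r averaged 8.05 ± 0.37 after 2-octanone and 8.70 ± 0.73 after vehicle, a difference of −0.65 (95% interval −1.45 to 0.16). In both exposures replicate 3 was the lowest GFP+ array for these genes, and the groups overlapped. The labels do not say that a replicate number joins an octanone pool to a vehicle pool, so pairs by that number are a description only. Between pools of the same replicate number C1qa was lower after 2-octanone in 4 of 4, by −0.50, −0.23, −0.62 and −1.65. So was Csf1r, by −0.96, −0.39, −0.05 and −1.20. The other genes were mixed. C1qc, Cx3cr1 and Adgre1 were lower in 3 of 4, C1qb in 2 of 4, and Tyrobp, Fcer1g and Aif1 in 1 of 4. With the replicate number as a block the SE of C1qa was 0.233 and its adjusted p 0.928.

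The adaptor genes Tyrobp and Fcer1g differed by 0.24 (95% interval −0.72 to 1.19) and 0.39 (−0.55 to 1.33) in GFP+ cells. The median difference of the 13 neutrophil genes in the same comparison was 1.43 and that of the 12 monocyte genes 0.53, with none of these genes called. The mean neutrophil signal in GFP+ cells was 7.13, 7.04, 9.21 and 11.66 after 2-octanone, against 7.12, 7.17, 6.70 and 7.82 after vehicle, so it stood out in octanone replicates 3 and 4. Its part in the adaptor values was not tested.

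In GFP− cells the differences were smaller, from −0.25 for Cx3cr1 to 0.03 for Tyrobp and Csf1r (median −0.12). C1qa averaged 9.04 ± 0.31 after 2-octanone and 9.04 ± 0.78 after vehicle, a difference of 0.00 (95% interval −0.88 to 0.88). The GFP+/GFP− ratio of C1qa differed by −0.75 between 2-octanone and vehicle (SE 0.59, 95% interval −1.99 to 0.49) and that of Fcer1g by 0.51 (95% interval −0.82 to 1.83), and neither was called (adjusted p = 1.0 each). All these intervals are from the fit without a block.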

How the data were processed

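RNA of GFP+ and GFP− cells from 8 pools of 3 mice was measured on Clariom S arrays, 16 in all, from 50 to 100 ng of total RNA per the labels' protocols. Expression Console made the deposited values, per the submitters' processing notes; algorithm, version, genome build and log base are not given in the sources used here. The deposited values (2.13 to 18.99) were read as the authors' normalised log2 signals from their range. Of the probe sets, 19572 named 1 gene through an Entrez identifier found in a RefSeq table. A gene was described by its probe set with the highest mean over the 16 arrays.

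The group means of all 16 arrays were fitted with limma 3.58.1 in R 4.3.3 (12 residual degrees of freedom, 4.19 prior), two-sided, with Benjamini-Hochberg adjustment over all named probe sets, and the fit was checked on simulated data. The number of arrays limits the precision. Permutation tests were exact over the 8 pools. Named were the 10 genes, up to 4 genes with the smallest p per list, the 5 genes nearest to each profile, and genes marked in the text as chosen later. The genes and the 11 other lists (10 of their 138 genes were not named on the array) were chosen with earlier results of these data known.

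GFP+ and GFP− cells of a pool shared their mice, and the pool was therefore tried as a block (residual correlations from −0.00493 to 0.461). The labels do not say that a replicate number joins exposures. Correlations between same-numbered pools were 0.175 to 0.435 in GFP+ cells and −0.062 to 0.517 in GFP− cells. They were not set against those of differently numbered pools. The replicate number was tried as a block between exposures in both fractions, as an alternative only. Same-numbered pools were set side by side only in GFP+ cells, where each correlation passed 0.1. Alternatives were other scalings, a filter on dim probe sets, a variance trend with robust moderation, array weights, blocks, fewer arrays, and pools left out.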

Additional observations from a re-analysis of the deposited data

Results flagged for a closer look

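A single array or pool stood far from the other 3 of its group (Dixon's criterion for the gap to the nearest value) in 7 of 54 sets of 4 values, where chance gives about 1 in 20. Among arrays these were the Fcer1g signal of 7.34 in GFP+ cells of vehicle replicate 3, the C1qa signal of 10.19 in GFP− cells of vehicle replicate 4 and the C1qb signal of 7.49 in GFP− cells of octanone replicate 1. Among within-pool differences they were Tyrobp at −5.11 in vehicle replicate 4, Fcer1g at −3.40 in octanone replicate 4, C1qc at 0.86 in vehicle replicate 1 and Aif1 at −0.01 in octanone replicate 1. The 54 sets are not independent, since the within-pool differences come from the same arrays and many of the genes varied together between pools. The count of 7 therefore does not show more outliers than chance gives. The causes were not tested.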

How the results depend on the processing

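The alternatives were other scalings, filters, weights, blocks and sets of arrays. Over both exposures Fcer1g (−4.96 to −4.50), Tyrobp (−4.16 to −3.81), Csf1r (−1.78 to −1.38), Aif1 (−1.32 to −0.89) and Cx3cr1 (−1.48 to −1.06) kept their direction and their call under every alternative run, and Adgre1 did not. The replicate block (pool within the sort, replicate number between exposures) gave 6 calls over both exposures, 6 after 2-octanone against 4, 6 after vehicle against 5, and 0 in the exposure comparisons. Keeping only probe sets above the median mean, which left 5 of the 9 genes, gave 3 calls over both exposures and 3 after vehicle, and fitting only the arrays compared gave 3 after vehicle. With 1 pool left out, calls ran from 5 to 6 over both exposures, 3 to 6 after 2-octanone, 3 to 5 after vehicle (3 without vehicle replicate 3) and 0 to 0 elsewhere. Directions turned only where no call was made. In the sort these were C1qc (0.25 under quantile normalisation, 0.26 under median centring, 0.01 with array weights) and C1qa (0.02, 0.16, and 0.02 without both replicate 4 pools), C1qc after 2-octanone (0.06 under both scalings) and C1qb after vehicle (0.07 and 0.11). Between exposures they were Fcer1g in GFP+ cells (−0.02 without both replicate 4 pools), and in GFP− cells C1qc (0.01 under centring, 0.18 with weights, 0.34 without both replicate 4 pools), Tyrobp (−0.04 with weights) and Adgre1 (0.03 with weights, 0.13 without those pools), and Tyrobp in the change of the sort with exposure (−0.03 without those pools). Leaving out 1 pool also turned signs: over both exposures C1qc ran from −0.13 to 0.10 and C1qa from −0.27 to 0.04, after 2-octanone C1qc from −0.34 to 0.03, and after vehicle C1qb from −0.48 to 0.06 and C1qc from −0.06 to 0.27. In the odorant comparison of GFP+ cells Fcer1g ran from −0.13 to 0.64 and Tyrobp from −0.05 to 0.41. In that of GFP− cells Fcer1g ran from −0.34 to 0.12, C1qb from −0.40 to 0.02, C1qc from −0.21 to 0.26, C1qa from −0.17 to 0.39, Tyrobp from −0.33 to 0.41, Adgre1 from −0.26 to 0.17, Aif1 from −0.34 to 0.02 and Csf1r from −0.16 to 0.42. In the change of the sort with exposure C1qb ran from −0.44 to 0.10, Tyrobp from −0.10 to 0.37 and Cx3cr1 from −0.40 to 0.14. The cause was not tested. Another probe set per gene could not be tried, since each gene had 1. Signal was low over background for Cx3cr1, Aif1, Adgre1, C1qc and, in GFP+ cells, Tyrobp and C1qb. No detection call was given, and whether low signal limits their differences was not tested.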
